A study of Mus musculus with 36 samples.

Results

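The enzymes of mitochondrial fatty acid beta-oxidation were followed through germ cells, early embryos and grown offspring tissues of the mouse. The set holds 9 genes, taken by symbol and matched to their Ensembl identifiers, of 54838 genes in the sperm, liver, eWAT and gastrocnemius tables, 55487 in the morula table and 51912 in the round spermatid table. All 9 were present in all 6 tables. They are Cpt1a, Cpt1b and Cpt2 of the carnitine shuttle, the acyl-CoA dehydrogenases Acadvl, Acadl and Acadm, the trifunctional protein genes Hadha and Hadhb, and Hadh.

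Long-chain fatty acids enter mitochondria as carnitine esters. CPT1 in the outer membrane makes the ester and is inhibited by malonyl-CoA, and CPT2 in the inner membrane turns it back into acyl-CoA. The acyl-CoA dehydrogenases then open each round of oxidation according to chain length, the trifunctional protein carries the next steps for long chains, and HADH is the dehydrogenase that acts on shorter chains. Cpt1a is known as the liver form of CPT1 and Cpt1b as the form of skeletal and heart muscle.

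All mice were wild-type and labelled C57BL/6, given as the substrain C57BL/6N in the study's methods. Males that were 6 weeks old received a high-fat diet (HFD, 60% of kcal from fat) or a low-fat diet (LFD, 10% of kcal from fat) for 2 weeks. Cauda spermatozoa obtained by swim-up (3 HFD and 3 LFD libraries) and morulae made by in vitro fertilization with such sperm and cultured for 72 h (3 libraries with an HFD father and 3 with an LFD father) carried the diet in their column names, although 3 morula samples name the opposite diet in their free-text description. Round spermatids of fed males (6 libraries, HFD and LFD together) and liver, epididymal white adipose tissue (eWAT) and gastrocnemius muscle of male offspring of HFD-fed fathers (6 libraries each, glucose-tolerant and glucose-intolerant animals together) are treated as 1 group per tissue, since their columns carry run numbers alone. Their spread therefore includes any effect of diet or tolerance. Nothing states how many males stand behind a sperm or morula library, so p-values measure the spread between these libraries.

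Sperm, round spermatids and morulae were sequenced with Nextera libraries, which cover the whole transcript, and the offspring tissues with QuantSeq, which places reads at the 3′ end of the mRNA. Levels between genes are therefore given per kb of exon for Nextera libraries, as CPM (counts scaled to a common library total) divided by exon length, and levels of the 2 kits are not compared. Total counts per library were 20138842 to 31056066 in round spermatids, 2560219 to 4062321 in sperm, 11471251 to 12153141 in morulae, 2036237 to 2552454 in liver, 1338149 to 4055537 in eWAT and 369772 to 2749920 in gastrocnemius. A count of 0 allows up to 3 counts, or 0.738 to 1.17 CPM in sperm and 1.09 to 8.11 CPM in gastrocnemius, for counting error only. The defining markers were present where the labels place them: all 7 of the hepatocyte list in liver, all 7 adipocyte genes in eWAT, all 7 skeletal muscle genes in gastrocnemius, all 8 round spermatid genes in round spermatids and all 7 preimplantation genes in morulae.

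Hadha and Hadhb, which encode the alpha and beta subunits of the same enzyme complex, lie head to head on chromosome 5 (Hadha at 30118304-30155162 on the minus strand, Hadhb at 30155248-30184593 on the plus strand, GRCm38). Only 85 bases separate the gene models. The RefSeq start sites lie 273 bases apart, that of Hadhb at 30155253 and that of Hadha at 30154980, inside its gene model. The bases between the models are shown because they lie upstream of both genes, of which Hadha was called higher in liver than in gastrocnemius and Hadhb was not. The difference between the genes was not tested. They are given on the plus strand at chr5:30155163-30155247 (RefSeq promoter window of Hadhb, GRCm38.p6), with the GC box GGGCGG in capitals:
Hadha-Hadhb spacer: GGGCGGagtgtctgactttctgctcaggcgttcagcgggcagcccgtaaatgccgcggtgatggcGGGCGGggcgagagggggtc

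Cpt1a, which varied most between the offspring tissues, lies on chromosome 19 (3323301-3385732, plus strand, in the table of liver). The exon-free part of its RefSeq promoter window, chr19:3323051-3323284 on the plus strand (GRCm38.p6), holds a nuclear receptor half-site (AGGTCA, here as TGACCT) and GC boxes (GGGCGG, here as CCGCCC), shown in capitals:
Cpt1a promoter: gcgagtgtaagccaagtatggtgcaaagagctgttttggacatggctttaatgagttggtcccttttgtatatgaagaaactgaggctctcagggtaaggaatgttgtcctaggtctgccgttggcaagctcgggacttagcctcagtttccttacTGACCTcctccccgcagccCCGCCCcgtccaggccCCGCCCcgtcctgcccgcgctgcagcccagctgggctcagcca

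RefSeq promoter windows, 250 bases before to 50 bases after the start, were at hand for 8 of the 9 genes. The half-site, read on both strands, occurred in 3 of these 8 windows (Cpt1a, Acadvl and Acadm) and in 16.3% of all 32851 windows. The GC box occurred in 6 of the 8 and in 35.7% of all, and the CCAAT box (CCAAT, both strands) in 2 of the 8 (Cpt1a and Hadh) and in 37.4% of all. The windows of Hadha and Hadhb overlap, and the only GC box of the Hadha window also lies in that of Hadhb. The DR1 element, a direct repeat of the half-site with a single base between, was in 0 of the 8 windows and in 0.0396% of all. These matches describe letters in a window and not binding.

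Cpt1b had no usable level in 5 of the 6 tables. It was at 0 counts in all 18 libraries of liver, eWAT and gastrocnemius, muscle included, although Acta1 and the other muscle markers were abundant there. In the gene models of the tables, 81.4% of the exon bases of Cpt1b (chromosome 15, 89416405-89425863, minus strand) also belong to an exon of another gene on the same strand, and so do all of its last 500 exon bases, where QuantSeq reads fall. That other gene is the readthrough Gm44502, with 0 counts in every sperm, morula, liver, eWAT and gastrocnemius library, and in the round spermatid table, which does not list Gm44502, it is Chkb, a choline kinase.

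How the tables treat such bases can be read from genes that lie wholly within exons of other genes. On the same strand there were 744 of these in the sperm, liver, eWAT and gastrocnemius tables, and 0 of them had a count in any library. In morula 8 of 785 and in round spermatids 16 of 680 had a count. Genes wholly covered by exons on the opposite strand alone had a count in 56 of 454 cases in liver, 90 of 454 in eWAT and 49 of 454 in gastrocnemius, but in 0 of 454 in sperm, 0 of 438 in morula and 1 of 425 in round spermatids. Nearly all reads in shared bases were thus left uncounted, by strand in the QuantSeq tables and on either strand in the Nextera tables. For Acadvl, the very-long-chain dehydrogenase, 42.9% of exon bases and 82% of the last 500 overlap Dvl2 on the opposite strand, so its Nextera levels are lower bounds while its QuantSeq counts are free of this. Hadha shared 0.859% of its exon bases and the other 6 genes 0.

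**Figure D1:**
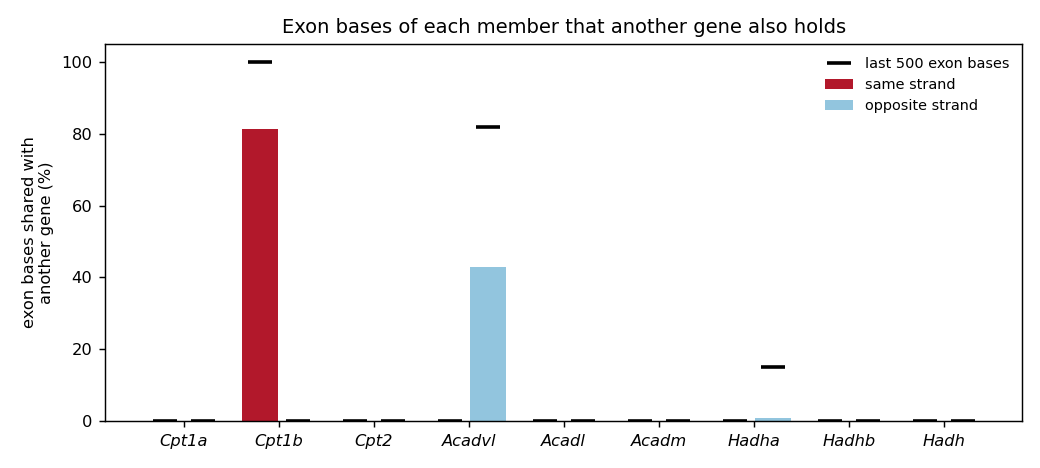
Percentage (y axis) of the exon bases of each gene (x axis) that lie in an exon of another gene on the same strand (red bars) or the opposite strand (blue bars), with black marks for the last 500 exon bases, in the gene models of the liver table. Cpt1b stands at 81.4% on the same strand and Acadvl at 42.9% on the opposite strand.

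Hadhb has a further limit. The processed pseudogene Gm13910 matches 1428 bases of its 2048-base transcript at 99.8% identity and Gm9108 matches 1426 bases at 97.6%, in a stretch that ends before the last 500 bases. Gm13910 itself held 4 to 10 counts in round spermatids, 5 to 14 in morulae and 0 in the offspring tissues. How the authors treated reads with several matches is not given in the sources used here, so Nextera levels of Hadhb are uncertain. Acadm had a pseudogene match, Gm5131, of 681 bases at 93.5% identity.

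In the offspring tissues all 8 tested genes were called higher in liver than in eWAT, beside 28.9% of all genes tested. Of the 8, 5 were called higher in liver than in gastrocnemius, beside 34.9%, by TMM scaling in both cases. Expressed as CPM after TMM scaling over the 18 libraries, Cpt1a ranged from 665 to 849 in liver (median 721), from 38.6 to 76.4 in eWAT (median 46.6) and from 4.57 to 19.9 in gastrocnemius (median 13.1). The 3 tissues did not overlap. The raw counts in gastrocnemius were 6, 8, 11, 14, 22 and 23, so that the library with 369772 counts in all gave only 6. By edgeR's quasi-likelihood test Cpt1a was higher in liver than in gastrocnemius by 6.00 ± 0.28 on the log2 scale (SE, n = 6 and 6, adjusted p = 1.2e-14), higher in liver than in eWAT by 3.88 ± 0.23 (adjusted p = 1.2e-12) and higher in eWAT than in gastrocnemius by 2.12 ± 0.26 (adjusted p = 1.8e-07).

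Cpt2, the partner of CPT1 on the inner membrane, followed another order after TMM scaling. Its median CPM before that scaling was 26.2 in gastrocnemius and 25.1 in eWAT. With library totals its fold change between these tissues changed sign. The TMM-scaled CPM of Cpt2 was 97.8 to 149 in liver, 25.1 to 40.1 in gastrocnemius and 11.7 to 25.4 in eWAT, so that muscle stood above fat with a narrow overlap. Liver exceeded gastrocnemius by 1.90 ± 0.19 (log2, SE, edgeR adjusted p = 6.5e-09) and eWAT by 2.74 ± 0.19 (edgeR adjusted p = 9.8e-12), whereas eWAT against gastrocnemius was -0.84 ± 0.19 (edgeR adjusted p = 0.00061). The ratio of Cpt1a to Cpt2 counts within a library had a median of 6.14 in liver (4.67 to 7.58), 2.60 in eWAT (1.83 to 6.51) and 0.374 in gastrocnemius (0.182 to 0.545). Cpt1a outnumbered Cpt2 in every liver and eWAT library, and Cpt2 outnumbered Cpt1a in every gastrocnemius library.

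Among the acyl-CoA dehydrogenases of the set, Acadl, the long-chain enzyme, was the most abundant in each tissue by QuantSeq counts. Such counts fall at the 3′ end and do not scale with length. Acadl had a TMM-scaled CPM of 579 to 793 in liver, 338 to 809 in gastrocnemius and 205 to 312 in eWAT. Liver and gastrocnemius overlapped, and the difference of 0.39 ± 0.20 (log2, SE) did not pass (edgeR adjusted p = 0.095). Without the gastrocnemius library of 369772 counts, which gave the highest gastrocnemius value of Acadl and also of Cpt1a, Acadm, Hadha and Hadhb, the difference was 0.55 and passed (edgeR adjusted p = 0.015). Acadm, the medium-chain enzyme, was 450 to 548 in liver, 153 to 365 in gastrocnemius and 66.7 to 161 in eWAT, in TMM-scaled CPM. Liver exceeded gastrocnemius by 1.08 ± 0.22 (edgeR adjusted p = 0.00017), and these 2 tissues did not overlap. Acadvl was 136 to 216 in liver, 46.3 to 91.5 in gastrocnemius and 17.7 to 37.2 in eWAT, without overlap, and exceeded gastrocnemius in liver by 1.15 ± 0.20 (edgeR adjusted p = 1.9e-05).

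Of the trifunctional protein genes, Hadha was called higher in liver than in gastrocnemius and Hadhb was not. The difference between these genes was not tested. TMM-scaled CPM of Hadha was 371 to 741 in liver, 148 to 375 in gastrocnemius and 66.1 to 104 in eWAT, and liver exceeded gastrocnemius by 1.17 ± 0.22 (log2, SE, edgeR adjusted p = 5.6e-05). Hadhb was 19.2 to 37.9 in liver, 15.5 to 56.4 in gastrocnemius and 3.85 to 12.7 in eWAT, and the first 2 tissues overlapped (-0.10 ± 0.32, edgeR adjusted p = 0.80). Hadha counts were 9.78 to 38.7 times those of Hadhb in liver (median 18.6), 5.78 to 23.8 times in eWAT (median 9.53) and 4.81 to 9.87 times in gastrocnemius (median 7.97). All 6 liver ratios but 1 were above all gastrocnemius ratios. Counts of Hadhb were 15 to 78 in these tissues, so that a single ratio carries a large counting error, and the use of alternative 3′ ends was not tested.

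Hadh, the short-chain dehydrogenase, had the smallest excess of liver over eWAT among the 8 genes. Its TMM-scaled CPM was 121 to 343 in liver, 113 to 263 in gastrocnemius and 84.2 to 170 in eWAT, all overlapping. Liver and gastrocnemius differed by 0.58 ± 0.26 (log2, SE, edgeR adjusted p = 0.053), which did not pass, although it did without a filter on low counts (0.66, edgeR adjusted p = 0.021). Liver exceeded eWAT by 1.00 ± 0.26 (edgeR adjusted p = 0.0016). Within liver the 2 shallowest libraries had at most 249 Hadh counts and the other 4 had 536 to 706.

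**Figure D2:**
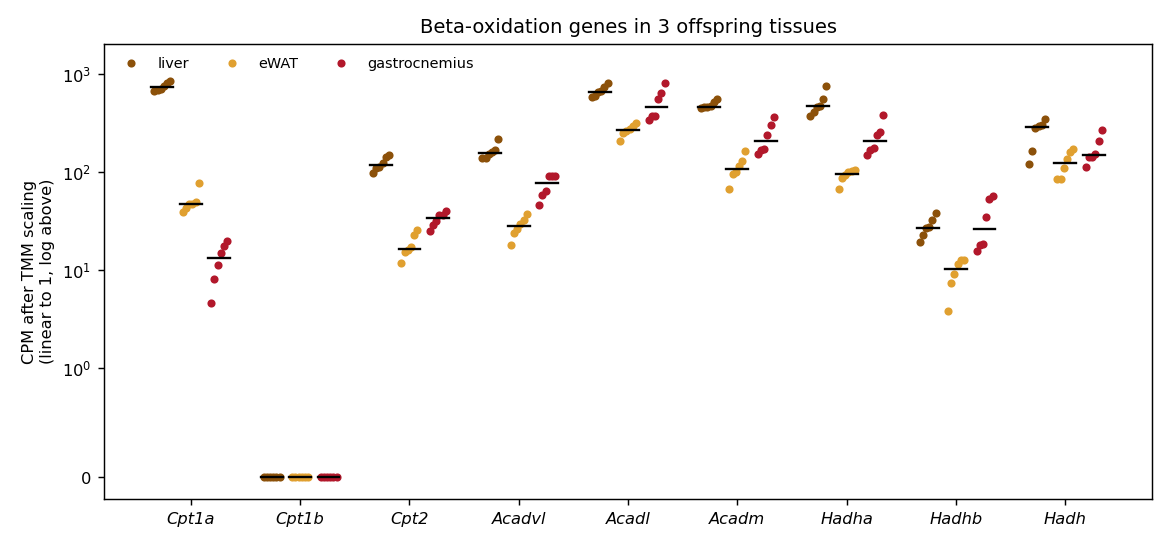
CPM after TMM scaling (y axis, linear to 1 and logarithmic above) of the 9 genes (x axis) in 6 liver, 6 eWAT and 6 gastrocnemius libraries, drawn within each group in order of value, with the median as a black line. Cpt1a falls from 721 in liver to 46.6 in eWAT and 13.1 in gastrocnemius, the median of every other counted gene is lowest in eWAT, and Cpt1b is at 0 throughout.

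Counted over the set, 5 of the 8 tested genes were called higher in liver than in gastrocnemius and 0 lower, beside 34.9% of the 10851 genes tested that were called higher and 31.4% lower. Against eWAT all 8 were called higher in liver, beside 28.9% of all genes higher and 32.6% lower. In eWAT against gastrocnemius 1 gene, Cpt1a, was called higher and 6 lower, beside 41.1% of all genes higher and 26.3% lower. The median log2 fold changes of the set were 1.12, 2.28 and -0.99, and those of all genes tested 0.06, -0.07 and 0.35. The 3 comparisons share libraries. Each tissue is also 1 table with its own depth, and tissue and sequencing run cannot be told apart.

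The comparisons with eWAT depended on scaling. TMM factors were 1.44 to 1.70 in eWAT and 0.744 to 0.853 in the other 2 tissues. With library totals in place of TMM the median gene moved by 0.96 in eWAT against gastrocnemius, Cpt1a was still called higher in eWAT, beside 67.8% of all genes, 0 of the 8 genes were called lower, beside 11.3%, and Cpt2, Acadl and Hadh changed sign. Liver against eWAT then had 5 of 8 genes called higher, beside 13% of all genes, without Acadl, Hadhb and Hadh. Liver against gastrocnemius had 5 called higher, beside 35.7%. Markers of blood and muscle were also present in eWAT: the 3 erythroid genes summed to 3957 to 13335 CPM against 274 to 475 in liver and 381 to 560 in gastrocnemius, and the 7 skeletal muscle genes to 42.7 to 1346 CPM against 44322 to 90702 in gastrocnemius. The 7 hepatocyte genes summed to 92.7 to 928 CPM in eWAT against 53194 to 73702 in liver, and the 7 adipocyte genes to 252 to 1252 CPM in gastrocnemius against 31580 to 46011 in eWAT. Adipoq was at 54.1 and 47.0 CPM in the 2 shallowest gastrocnemius libraries, which had the highest Cpt1a (19.9 and 17.5 CPM after TMM scaling), at 46.8 CPM in a library with Cpt1a at 8.11, and at 3.88 to 8.12 CPM in the other 3. The part of these cells in the differences was not tested. In bulk tissue fewer cells of a type and less RNA per cell cannot be told apart.

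**Figure D3:**
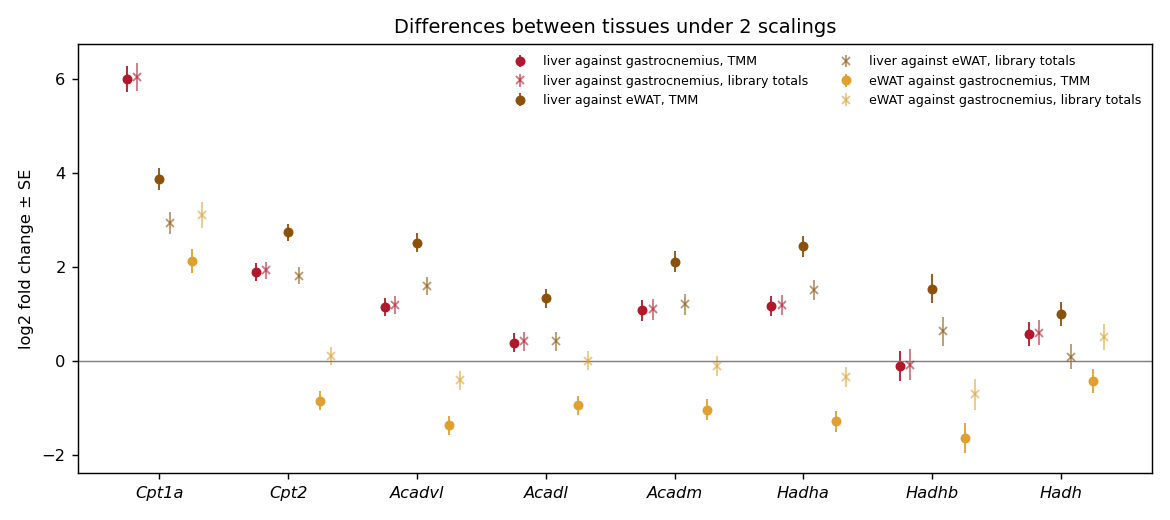
Log2 fold changes with SE (y axis) of the 8 tested genes (x axis) for the 3 tissue comparisons, by TMM (filled circles) and by library totals (crosses). Circles and crosses nearly coincide for liver against gastrocnemius and lie about 0.96 apart for eWAT against gastrocnemius.

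The other genes of the pathway comprised 37 genes: 18 further mitochondrial enzymes and carriers, 11 peroxisomal genes, 5 long-chain acyl-CoA synthetases and 3 genes of malonyl-CoA metabolism. Of the 34 tested, 26 were called higher and 3 lower in liver than in gastrocnemius, beside 34.9% and 31.4% of all genes tested. Against eWAT 26 were called higher and 4 lower in liver, beside 28.9% and 32.6%. In eWAT against gastrocnemius 17 were called higher and 10 lower, beside 41.1% and 26.3%. These counts are by TMM scaling. Acaa2, the mitochondrial thiolase, exceeded gastrocnemius in liver by 2.42 ± 0.29 (log2, SE). Acacb, the acetyl-CoA carboxylase whose malonyl-CoA acts on CPT1, went the other way and fell by 4.17 ± 0.32. Both genes were chosen after their values were seen.

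Among the genes whose pattern was most like that of Cpt1a over the 18 libraries, by Pearson correlation of log2 CPM (TMM, prior count 2) of 10851 genes, were Lamp2 (r = 0.989), Elovl5 (r = 0.989), Tmie (r = 0.983) and Entpd5 (r = 0.982). Elovl5 is a fatty acid elongase. Among the other members r with Cpt1a was 0.77 for Cpt2, 0.63 for Acadm, 0.62 for Hadha, 0.59 for Acadvl, 0.46 for Acadl and for Hadh and 0.14 for Hadhb. The libraries of a tissue share its level, so that these values describe 3 tissues more than 18 points. No such list could be made for Cpt1b, which has no count there.

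Germ cells and embryos were measured with the other kit, and the order of the genes is given within each of them. Round spermatids were led by Hadha, with 7081 to 11396 counts and 40.3 to 42.2 CPM per kb, by Cpt2 with 28.0 to 30.2 CPM per kb and by Hadhb with 12.7 to 14.2 CPM per kb. These 3 genes made up a median of 45.5%, 31.7% and 14.4% of the members' summed CPM per kb. Such values divide by all exon bases of a gene model, 6595 for Hadhb and 3913 for Acadm. Their longest coding transcripts hold 2048 and 2047 bases, so the order and the shares depend on the length used. Acadl, Acadm and Hadh were at the low end, with 29 to 44, 41 to 69 and 36 to 73 counts, or medians of 0.702, 0.552 and 0.435 CPM per kb. Cpt1a, Cpt1b and Acadvl lay between, with medians of 2.11, 1.45 and 2.57 CPM per kb, and every library gave Hadha, Cpt2 and Hadhb the first 3 places. The values of Cpt1b and Acadvl are lower bounds, since reads in bases shared with other genes were mostly left uncounted.

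Morulae had another order. Acadl led with 1400 to 1599 counts and 60.2 to 65.6 CPM per kb, a median of 52.6% of the members' sum, followed by Acadm with 1274 to 1712 counts, 27.4 to 36.3 CPM per kb and 25.8% of the sum. The counts of both genes overlapped, so the lead of Acadl rests on the exon length used, 2005 bases against 3913 for Acadm. Cpt2 had only 12 to 44 counts, 0.414 to 1.55 CPM per kb and 0.452% of the sum. Acadvl had 6 to 32 counts. Hadha, Hadhb, Hadh and Cpt1a lay between, with medians of 6.53, 5.28, 6.31 and 6.25 CPM per kb, and neighbours in that order overlapped.

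Tissue and table cannot be told apart here either. On the scale of CPM per kb, round spermatid and morula libraries did not overlap for any of the 9 genes, and this was so for 86.4% of the 18122 genes with a mean of at least 1 CPM over these 12 libraries. Such a separation is thus usual between these tables. The Cpt1a exon length is 7642 bases in the morula table and 4300 in the round spermatid table, so its per-length value is not taken over the same model. In CPM, Cpt1a was 7.70 to 10.4 in round spermatids and 35.6 to 58.2 in morulae. Hadha exceeded Hadhb by 3.93 to 4.29 times in counts in round spermatids and by 1.39 to 1.87 times in morulae, again without overlap and subject to the pseudogene limit of Hadhb. The share of counts from mtDNA was 1.96% to 2.38% in round spermatids and 22.8% to 26.9% in morulae, which lowers every nuclear CPM in the latter.

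Cpt1b was counted only in round spermatids at a usable level, with 110, 110, 113, 124, 134 and 150 counts. In morulae 1 library had 3 counts and 5 had 0. In sperm the counts were 0, 0 and 3 on HFD and 0, 0 and 1 on LFD. With morulae set at 3 counts per library, Cpt1b was at least 19.6-fold higher in round spermatids (mean CPM 4.97 against 0.254), and the share of exon bases that can be counted is the same in both tables. The log2 ratio of Cpt1a to Cpt1b, per exon length and with 0.5 added to each count, was 0.51 ± 0.20 in round spermatids (SD, n = 6). This is an upper bound, since most exon bases of Cpt1b are shared and were left uncounted. With Cpt1b at 0 in 5 of 6 morula libraries, 4 of 6 sperm libraries and all offspring tissue libraries, the ratio elsewhere rests on the added count, on Cpt1a and on depth. Its difference between round spermatids and morulae was -7.96 with 0.5 added and -6.22 with 2 added, and that between round spermatids and sperm -4.66 and -3.19, so no test of the ratio between tissues is read here.

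The order of Cpt1a and Cpt1b in round spermatids turned on the length used. With whole exon lengths, Cpt1a exceeded Cpt1b by 1.25 to 1.84 times, but shared bases of Cpt1b could hardly be counted. Over the 628 exon bases that Cpt1b shares with no other gene, Cpt1b was the higher. Its median was then 7.78 CPM per kb against 2.11 for Cpt1a. This length matches the counted bases more closely. The brain form Cpt1c, which belongs to the list of other pathway genes, had 1873 to 3111 counts there and a median of 17.2 CPM per kb, above both, and 2 to 22 counts in morulae. Crat, the carnitine acetyltransferase, had a median of 162 CPM per kb in round spermatids and 1.01 in morulae, and Acsl1, a long-chain acyl-CoA synthetase, 66.8 and 0.809. Cpt1c, Crat and Acsl1 were singled out after their values were seen.

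**Figure D4:**
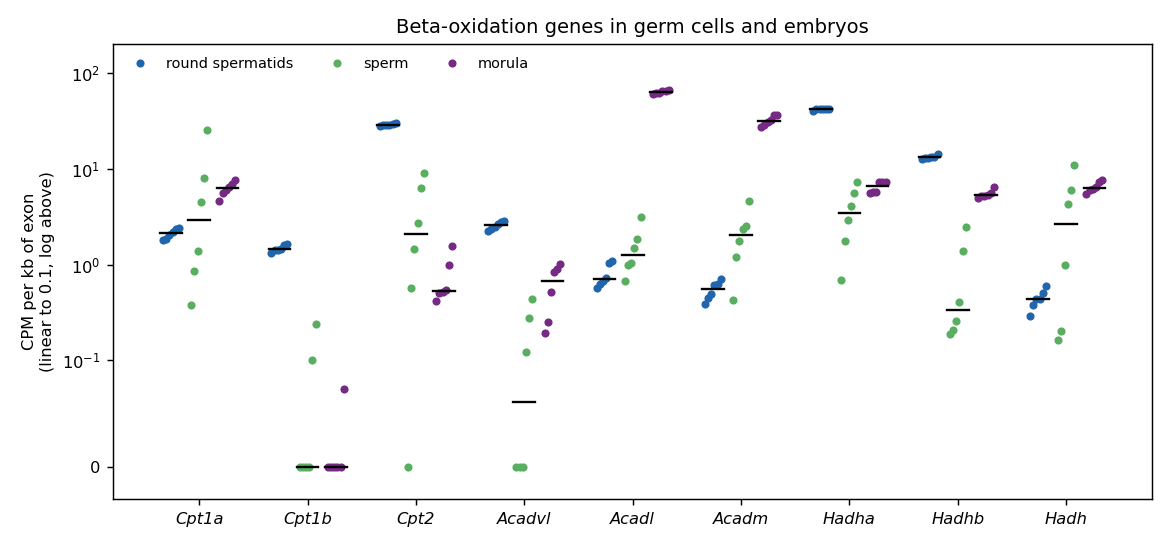
CPM per kb of exon (y axis, linear to 0.1 and logarithmic above) of the 9 genes (x axis) in 6 round spermatid, 6 sperm and 6 morula libraries, drawn within each group in order of value, with the median as a black line. Round spermatids are led by Hadha and Cpt2 and morulae by Acadl and Acadm, while sperm libraries spread over more than 10-fold for Cpt1a.

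Sperm libraries held few counts of the set, 23.1 to 290 CPM summed over the 9 genes against 534 to 560 in round spermatids, and between 43.5% and 84.3% of their counts came from mtDNA. The diet was compared with edgeR's quasi-likelihood test over the 8643 genes that passed the filter on low counts. Cpt1a, Cpt2, Acadm, Hadha and Hadh passed it, while Cpt1b, Acadvl, Acadl and Hadhb did not. None of the 5 was called, beside 0% of all genes tested. In simulated sperm data this test recovered 2 of 100 planted 2-fold changes and 13 of 100 planted 4-fold changes. The absence of a call in sperm therefore says little about changes of this size. At an unadjusted p under 0.05 there were 1122 genes, and DESeq2 called 286 and limma-voom 0 on the same genes, with 0 of the 5 in either. DESeq2 gave no adjusted p for Cpt2, and its lowest among the others was 0.064 for Hadh (DESeq2 adjusted p).

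Hadh counts in sperm were 3, 3 and 20 on HFD and 62, 90 and 140 on LFD, in order of value. The diets did not overlap, also after TMM scaling (1.84 to 6.88 against 14.02 to 21.2 CPM). HFD over LFD was -2.26 ± 0.73 (log2, SE, edgeR adjusted p = 0.25), which did not pass. Cpt1a counts were 6, 15 and 18 on HFD and 56 to 277 on LFD, and after TMM scaling 3.69 to 11.6 against 12.7 to 41.9 CPM. These groups did not overlap either, by a narrow margin after scaling, and the change of -1.92 ± 0.68 did not pass (edgeR adjusted p = 0.27). Of the 5 genes, 2 were without overlap after TMM scaling, beside 20.4% of all genes tested.

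Cpt2 counts were 0, 5 and 14 on HFD and 19, 46 and 55 on LFD, which overlapped after TMM scaling, with a difference of -1.43 ± 1.00 (log2, SE, edgeR adjusted p = 0.59). Acadm counts were 5, 19 and 36 on HFD and 20, 28 and 46 on LFD (0.86 ± 0.81, edgeR adjusted p = 0.71). Hadha counts were 22, 46 and 104 on HFD and 103, 148 and 163 on LFD, and the scaled difference was near 0 (0.0049 ± 0.52, edgeR adjusted p = 1.00). Of the 4 untested genes, Acadl had 5 to 11 counts on HFD and 6 to 16 on LFD, Hadhb 5 to 8 and 5 to 42, Acadvl 0 to 3 in both and Cpt1b as given above. After TMM scaling Acadl was 2.75 to 7.10 CPM on HFD and 1.36 to 2.42 on LFD, without overlap and higher on HFD, while its raw counts overlapped.

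These values turned on scaling. TMM factors were 0.442 to 0.716 on HFD and 1.52 to 2.58 on LFD, and library totals in place of TMM moved the median gene by -1.73. On that scale Cpt1a (-3.83), Hadh (-3.92) and Cpt2 (-3.10) were called lower on HFD, as were 37.8% of the 8643 genes, and Acadm and Hadha turned negative.

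Epididymal RNA moved with the same libraries. The 7 epididymal epithelium markers, all of them with counts, summed to 2418, 1951 and 3537 CPM in the HFD libraries in which Cpt1a had 18, 6 and 15 counts. In the LFD libraries, taken from the highest to the lowest Cpt1a count, they summed to 32059, 10858 and 3655 CPM, so that the library with the most Cpt1a had the most epididymal RNA. Hadh counts in these LFD libraries were 140, 90 and 62, in the same order. The Sertoli and Leydig list, with 3 of 6 genes counted and Amh, Hsd3b1 and Insl3 at 0, summed to 57.1 to 265 CPM on HFD and 168 to 1777 on LFD. The 5 leukocyte genes summed to 53.5 to 73.8 CPM on HFD and 62.1 to 95.3 on LFD, and the 6 genes of elongating spermatids and sperm to 5492 to 10627 and 4097 to 9663. The part of epididymal RNA in the values of Cpt1a and Hadh was not tested.

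Morulae gave narrow groups. None of the 8 tested genes was called between paternal diets by edgeR, beside 0% of 13447 genes, with 858 genes at an unadjusted p under 0.05 and 9 called by DESeq2 and 0 by limma-voom, 0 of the 8 in either. None of the 8 was without overlap after TMM scaling, beside 12.1% of all genes tested. Acadl counts were 1400, 1525 and 1599 with HFD fathers and 1411, 1480 and 1555 with LFD fathers (0.0024 ± 0.094, log2, SE). Acadm counts were 1409, 1549 and 1648 against 1274, 1284 and 1712 (0.09 ± 0.11). Cpt1a counts were 496 to 605 against 408 to 706 (-0.10 ± 0.16).

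The morula differences of Hadha (0.09 ± 0.14), Hadhb (0.10 ± 0.14) and Hadh (-0.08 ± 0.17) were likewise smaller than their SE (log2), and those of Cpt2 (-0.28 ± 0.64) and Acadvl (-0.31 ± 0.69) carried wide errors at 12 to 44 and 6 to 32 counts. The edgeR adjusted p lay between 0.93 and 1.00 for these 8 genes. All 7 epididymal markers were at 0 in every morula library, and the 7 preimplantation genes summed to 631 to 690 CPM with HFD fathers and 688 to 737 with LFD fathers, which overlapped narrowly.

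**Figure D5:**
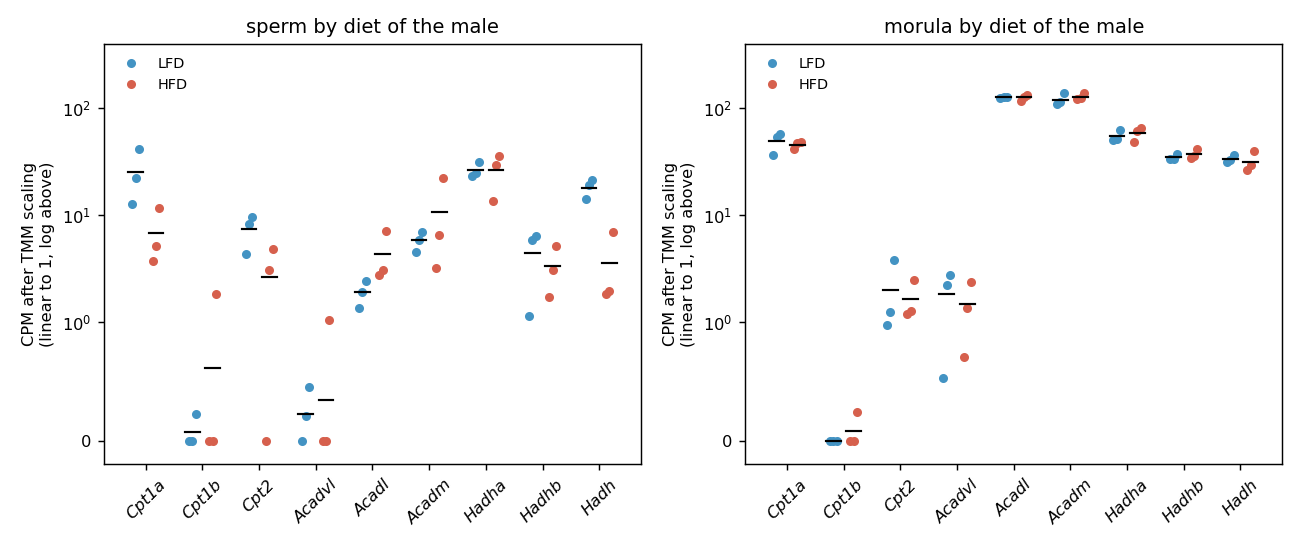
CPM after TMM scaling (y axis, linear to 1 and logarithmic above) of the 9 genes (x axis) in sperm (left) and morulae (right) by diet of the male, 3 libraries per diet drawn in order of value, with the mean as a black line. In sperm the HFD libraries of Cpt1a and Hadh lie below those of LFD, and in morulae the diets overlap for every gene.

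The diet effect in sperm was set against that in morulae for the 5 genes tested in both, by permuting the diets within each experiment over 400 arrangements. The difference of the effects on log2 CPM was -2.28 for Hadh (exact permutation p = 0.07, adjusted p = 0.29), -1.74 for Cpt1a (p = 0.115 by exact permutation, adjusted p = 0.29), -1.68 for Cpt2 (exact permutation p = 0.26, adjusted p = 0.43), 0.34 for Acadm (exact permutation p = 0.82) and -0.18 for Hadha (exact permutation p = 0.765, adjusted p = 0.82 for both). No difference between sperm and morulae was shown. With 3 libraries against 3, exact permutation within 1 experiment cannot give a p under 0.1. The absence of a call therefore says little here.

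Of the 37 other pathway genes, 25 were tested in sperm and 32 in morulae, and 0 were called in either. In sperm 6 had a log2 fold change above 0 and 19 below (median -0.60, against -0.07 for all genes tested). The highest were Crat (1.44 ± 0.59) and Acsl1 (1.37 ± 0.60) and the lowest Acad11 (-1.40 ± 0.83) and Eci2 (-1.30 ± 0.76), SE in each case. In morulae 13 were above 0 and 19 below (median -0.05, against 0.01). There the highest were Acaa1b (0.95 ± 0.70), a peroxisomal thiolase, and Crat (0.79 ± 0.37), and the lowest Acad10 (-0.78 ± 0.52) and Acsl1 (-0.43 ± 0.31).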

How the data were processed

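RNA-seq libraries of 6 materials were used (36 libraries, 6 tables). Per the study's methods, BBDuk trimming, STAR alignment (GRCm38, Ensembl genes) and featureCounts were run in a commercial web platform, and the authors deposited raw counts per gene; versions, strand setting and multi-mapping rule are not given in the sources used here. Exon lengths and coordinates are other columns of the deposited tables, per the file headers. Sperm and morula columns were grouped by the diet letter in their names and the sample titles. The 24 columns with run numbers alone were grouped by tissue only.

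Counts were fitted in R 4.3.3 with edgeR 4.0.16 (filterByExpr minimum count 10, TMM, quasi-likelihood, Benjamini-Hochberg over all genes tested, threshold 0.05), sperm and morula each alone and the 18 QuantSeq libraries together. SE is the absolute log2 fold change divided by the square root of F. Differences between sperm and morula effects used exact permutation tests. The study's own test was NOISeq. Alternatives were DESeq2 1.42.0, limma-voom (limma 3.58.1), other scalings, no filter and left-out libraries. No 2 libraries of a group agreed within sampling noise (chi-square per degree of freedom at least 3.50). Transcripts were compared with BLAST 2.17.0 (at least 90% identity over 100 bases) against GENCODE vM21. The scripts were tested on simulated data, where the morula fit recovered 56 of 100 planted 2-fold changes and 77 of 100 planted 4-fold changes. That fit also called 13 genes in which no change was planted. Named genes were the 9 members, the 2 highest and 2 lowest other pathway genes per diet comparison and the 5 genes most like Cpt1a, of which 1 is not reported here; members and lists were chosen with earlier results of these data known. Figures were drawn with matplotlib 3.10.9.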

Additional observations from a re-analysis of the deposited data

Results flagged for a closer look

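In 33 groups of 6 libraries, 2 held a library far from the other 5 by Dixon's criterion on CPM, where chance alone gives about 1 in 20. Cpt1a was at 129.8 CPM (456 counts) in the eWAT library of 3512177 counts, against 61.9 to 71.0 CPM in the other 5. The same library held 74 Prm1 counts against 0 to 3 in the others, its 8 round spermatid markers summed to 62.6 CPM against 0.740 to 3.44 and its 7 epididymal markers to 0.569 CPM. Without it all 8 genes were still called in liver against eWAT, beside 6806 of all 11013 genes tested. In eWAT against gastrocnemius 7 were called, beside 7381 of all 11013, in either direction. The part of germ cell RNA in this value was not tested. Hadha was at 351.6 CPM in the round spermatid library of 20138842 counts, against 363 to 369 CPM in the other 5.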

How the results depend on the processing

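Counts of called members moved under library totals: 3 in place of 0 in sperm, 5 in place of 8 in liver against eWAT and 1 in place of 7 in eWAT against gastrocnemius. Calls over all genes moved too, to 3266 in place of 0 of 8643 in sperm. They moved to 8401 in place of 6680 of 10851 in liver against eWAT, and to 8584 in place of 7318 in eWAT against gastrocnemius. With library totals the log2 fold change turned to -1.06 for Acadm and -1.65 for Hadha in sperm, to 0.11 for Cpt2, 0.0046 for Acadl and 0.51 for Hadh in eWAT against gastrocnemius, and the sperm minus morula difference to -1.26 for Acadm. Hadha in sperm also turned to -0.038 with limma-voom, -0.15 without a filter and -0.25 with the replicate block, and Acadl in morula to -0.00089 with DESeq2, -0.00083 with DESeq2 size factors, -0.00042 with limma-voom and -0.0092 without a filter. Hadhb in liver against gastrocnemius turned to 0.036 without the shallowest gastrocnemius library, chosen after seeing the data, and the median log2 ratio of Cpt1a over Cpt1b in round spermatids from 0.47 to -1.95 per unshared base, chosen likewise. With LFD libraries alone the Cpt1a to Cpt1b ratio of sperm minus morula was -1.95 in place of -3.30 (exact permutation p = 0.2 over 3 and 3 libraries, where 0.1 is the smallest possible), a value that rests on the 0.5 added to Cpt1b counts of 0. The causes were not tested.

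With any 1 sperm or morula library left out, 0 members were called. Over these fits the log2 fold change ranged in sperm from -2.26 to -0.90 for Cpt2, -0.22 to 1.26 for Acadm and -0.30 to 0.31 for Hadha, and in morula from -0.28 to 0.025 for Cpt1a, -0.70 to 0.56 for Cpt2, -0.83 to 0.098 for Acadvl, -0.049 to 0.047 for Acadl, -0.015 to 0.20 for Hadha and -0.27 to 0.042 for Hadh. For Cpt1a and Hadh in sperm it stayed between -2.51 and -1.34 and between -3.25 and -1.96. The replicate block by column number, where HFD and LFD sperm share 2 numbers, gave 0 called members and 2 called genes. It gave -2.50 for Cpt2 (-1.43 without it). Deviations of same-numbered libraries correlated at -0.14 and 0.10. These 2 values cannot tell whether the numbers pair libraries, and the labels name no pairing. No paired fit could be made for morula, whose diets share no number. Without filtering, 41 genes were called in sperm and 63 in morula, against 0 with the filter, 0 of them members; DESeq2 called 286 and 9, and library totals 3266 in sperm. Most counts of the members in sperm were under 50.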
